A study of Mus musculus with 8 samples.

Results

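The comparison described here is the effect of losing Zbp1 in mouse embryonic fibroblasts, measured across both Tfam backgrounds at once. It set the 4 libraries with a Zbp1-/- genotype (2 of Zbp1-/- and 2 of Tfam+/-Zbp1-/-) against the 4 without it (2 of WT and 2 of Tfam+/-), with Tfam genotype as a term in the model. All 8 libraries of the series therefore took part, and 13267 of 24972 genes had a mean of at least 10 normalized counts and were tested. Attention was kept to genes that moved the same way in both Tfam backgrounds, meaning that Zbp1-/- differed from WT in the same direction as Tfam+/-Zbp1-/- differed from Tfam+/-. Of the genes tested, 6290 (47.4%) met this condition and 448 of these also passed the test.

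The fibroblasts were primary cultures from embryos of embryonic day 14, passaged 2 times in serum-containing medium and left untreated. WT carried no stated mutation, Tfam+/- had lost 1 allele of Tfam, Zbp1-/- had lost both alleles of Zbp1, and Tfam+/-Zbp1-/- had both changes. The sources used here give neither the strain of the mice nor the origin of paired libraries (separate embryos or 1 pool), so p-values measure the spread between these libraries, which may be technical. Of 11 fibroblast markers all 11 were tested, and their summed level was 343801 to 426283 normalized counts in the 4 libraries without the Zbp1-/- genotype and 434626 to 563554 in the 4 with it. Most of each sum came from the collagens Col1a1, Col1a2 and Col3a1.

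Zbp1 encodes a cytosolic and nuclear sensor that binds nucleic acids in the left-handed Z conformation and can recruit the kinase Ripk3, which leads to necroptosis, a lytic form of cell death, and to inflammatory signalling. The gene is itself induced by interferon. Tfam encodes the protein that packages mitochondrial DNA, and its partial loss disturbs that DNA. Embryonic fibroblasts are a mixture of mesenchymal cells that keep the transcription factors and signalling genes of the body region they come from, and such cultures can also carry macrophages from the embryo.

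Library totals were 16752835 to 18303036 normalized counts, and the 4 libraries with the Zbp1-/- genotype had the 4 highest totals. These are totals after scaling and do not give the sequencing depth, on which the precision of a low gene depends. That depth cannot be recovered here. Tfam+/- replicate 1 and Zbp1-/- replicate 2 deviated together from the other library of their genotype: across genes, which are not independent replicates, how far each first replicate lay from its group mean correlated at -0.698 between Tfam+/- and Zbp1-/-. They lie on opposite sides of the comparison, so that their shared deviation cancels in the main effect while it widens the spread, but within each Tfam background it does not cancel and enters with opposite signs. The main counts and some of the values within a background are therefore given also with a term for the 2 shifted libraries, here called the shared term, and the main counts from the other 6. The figures show values without that term.

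Zbp1 itself (chromosome 2, 173206612 to 173218959, GRCm38) was the check of the labels. Its normalized counts were 7.34 and 3.19 (WT), 64.6 and 69.8 (Tfam+/-), 3.79 and 1.03 (Zbp1-/-) and 0.862 and 2.69 (Tfam+/-Zbp1-/-). WT was so low that its libraries overlapped with those of Zbp1-/-, and only Tfam+/- stood clearly above. The main effect was a log2 difference of -2.81 ± 0.79 (SE), which did not pass the threshold in limma (adjusted p 0.109), and was -0.92 in the WT background and -4.70 in the Tfam+/- background. With the term for the 2 shifted libraries the same difference passed (adjusted p 0.0152). Of 50 tested genes within 5 Mb of Zbp1, counting Zbp1 itself, limma called 0, and their median difference was 0.13. Among them 4 had an unadjusted p under 0.05, Zbp1 included. Some differed by more, most with a wide spread: Gm14296 (-1.41 ± 0.44, adjusted p 0.139), 2210418O10Rik (3.99 ± 2.38), Zfp965 (2.00 ± 1.30), Zfp966 (1.90 ± 2.39) and Zfp967 (-1.71 ± 2.38). In the Tfam+/- background 2210418O10Rik was at 7.71, Zfp965 at 3.74, Zfp966 at 3.69 and Zfp967 at -3.03. With the shared term 18 of these 50 were called, where 42.7% of all genes tested were called.

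Loss of Zbp1 went with more rises than falls under the scaling the authors used. A gene is called here when its Benjamini-Hochberg adjusted p, over all genes tested, was under 0.05. Of 13267 genes 448 were called (3.38%), 357 higher (2.69%) and 91 lower (0.686%). Before adjustment 2497 genes had p under 0.05. All 448 had the same sign in both backgrounds, which the test itself favours, since a gene with opposite effects has a small average. In 432 of the 448 the 4 Zbp1-/- libraries lay entirely to 1 side of the other 4. Among all genes tested, 12.3% had all 4 above and 2.45% all 4 below. The median size of a called difference was 0.87 on the log2 scale, and 171 genes (122 higher, 49 lower) changed by at least 1, which is 2-fold.

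The balance of directions depended on scaling. The median log2 difference of all genes tested was 0.118 as deposited. It became 0.0027 when libraries were rescaled by TMM, the trimmed mean of log ratios between libraries. Rescaling left 240 genes called (1.81%), 136 higher and 104 lower, so that 56.7% of calls were higher against 79.7% before. A total of 222 genes were called under both scalings (136 higher, 86 lower), and no gene called under the authors' scaling changed sign. With the shared term 5665 genes were called (42.7%), 83.2% of them higher, and with the term and rescaling together 3728, of which 1737 were higher and 1991 lower. The 6 libraries gave 3436 calls. All 448 genes were called in each of these 3 fits. That is not a separate check, because the term and the 6 libraries were chosen from deviations seen in these data. Adding the term left each Zbp1 difference as it was and acted on its standard error. For Sfrp2 the difference was 1.74 with and without the term, and the standard error went from 0.134 to 0.0962.

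Many calls rested on every library being present. Leaving out WT replicate 1 or 2 gave 88 and 80 calls, Tfam+/- replicate 1 or 2 gave 745 and 92, Zbp1-/- replicate 1 or 2 gave 146 and 406, and Tfam+/-Zbp1-/- replicate 1 or 2 gave 65 each. A set of 58 genes (44 higher, 14 lower) was called in all 8 of these fits, and in 57 of the 58 the groups did not overlap. All 58 were also called after rescaling and in the 6 libraries. For the called genes described below, the number of these 8 fits that called each is given where it is under 8.

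The pair of backgrounds can be set side by side, since their differences share no library. Both tests took their spread from all 8 libraries, however, so the calls in 1 background are not independent of the other. In that fit Zbp1-/- against WT called 141 genes (1.06%), and Tfam+/-Zbp1-/- against Tfam+/- called 748 (5.64%). Fitted on its own 4 libraries, the WT background gave 1 call and the Tfam+/- background 359. Of the 141, 126 had the same sign in the Tfam+/- background and 75 were called there with that sign. The 126 were 106 of the 119 that were higher and 20 of the 22 that were lower. In that background 67.8% of all genes tested were above 0 and 32.2% below. Of the 748, 538 had the same sign in WT, 355 of the 440 that were higher and 183 of the 308 that were lower. Among all genes tested, 60.6% were above 0 in the WT background and 39.4% below, so that 80.7% of the 440 is to be read against 60.6% and 59.4% of the 308 against 39.4%. With the shared term, 80.5% of the genes called in the WT background and 77.9% of those called in the Tfam+/- background had the same sign in the other, beside 69.2% of all genes. Of the 448 main-effect genes, 177 had the larger difference in the WT background and 271 in the Tfam+/- background. The difference between the backgrounds was itself called in 88 genes (0.663%), of which 3 were among the 448 (Col10a1, Penk and Fat4). With the shared term 148 of the 448 were called for this difference. The effect of Tfam genotype in the same model called 1 gene (0.00754%).

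**Figure D1:**
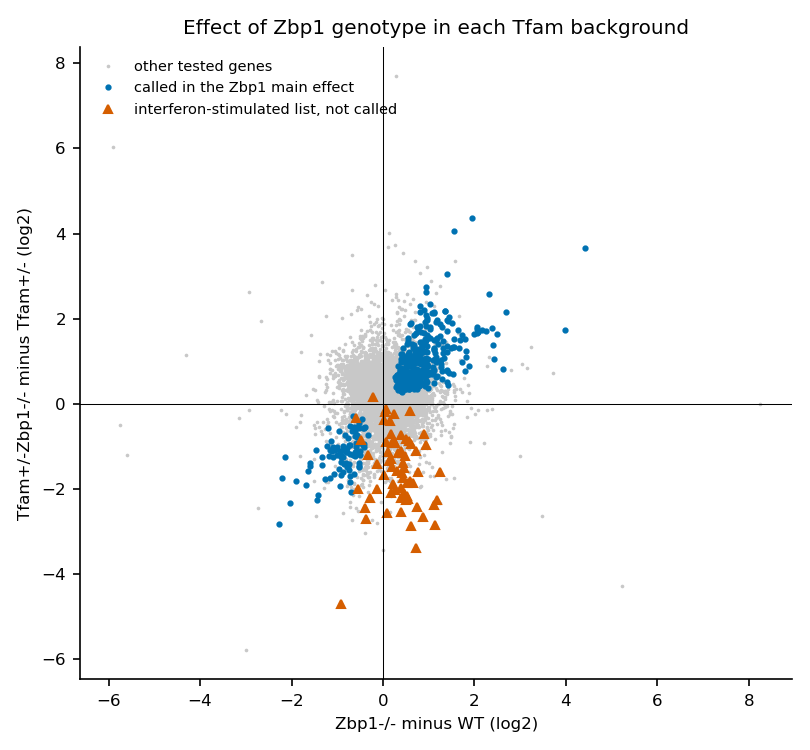
Each point is a tested gene, with the log2 difference between Zbp1-/- and WT on the x axis and between Tfam+/-Zbp1-/- and Tfam+/- on the y axis. The 448 called genes (blue) lie at the upper right and lower left, and most genes of the interferon-stimulated list (orange triangles) lie right of 0 and below it.

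The largest rises were mostly in genes with low levels in fibroblasts without the Zbp1-/- genotype. Phyhip (chromosome 14, 70457517 to 70468826), named for binding phytanoyl-CoA hydroxylase, had normalized counts of 0.953 and 3.62 (WT), 4.83 and 1.92 (Tfam+/-), 60.4 and 65.3 (Zbp1-/-) and 51.2 and 51.2 (Tfam+/-Zbp1-/-). It was near 0 without the Zbp1-/- genotype and above 50 with it in every library, a log2 difference of 4.03 ± 0.36 (adjusted p 0.00342). Rims2, a scaffold protein of synaptic release sites, was at 11.3 and 21.5 (WT) and 15.6 and 14.3 (Tfam+/-), against 97.2 and 68.9 (Zbp1-/-) and 84.6 and 105 (Tfam+/-Zbp1-/-). The groups were far apart, at 2.45 ± 0.23 (adjusted p 0.00384). Fxyd6, a small regulator of the sodium pump, rose by 1.95 ± 0.15 (adjusted p 0.0025), from between 110 and 144 in the 4 libraries without the genotype to between 386 and 746 in those with it. Its neighbour on chromosome 9, Fxyd2, also a pump regulator, rose by 2.09 ± 0.38 (adjusted p 0.0357, called in 1 of the 8 fits).

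Osr2, a zinc finger factor of palate and limb development, was at 53 to 82.3 without the Zbp1-/- genotype and 219 to 259 with it, and rose by 1.93 ± 0.14 (adjusted p 0.0025). The other 7 of the 12 largest rises rested on fewer of the 8 fits. They were C2cd4a (3.16), a cytokine-responsive nuclear protein, B3gat1 (2.86), which makes the HNK-1 carbohydrate of cell adhesion proteins, Slc14a2 (2.81), a urea transporter, Slc15a2 (2.42), a peptide transporter, Lrrtm3 (2.24), a synaptic adhesion protein, Necab1 (2.07), a calcium-binding protein, and Colec10 (1.99), a secreted lectin. Of these, C2cd4a, B3gat1 and Slc15a2 were called in 1 of the 8 fits, Necab1 and Colec10 in 2, and Slc14a2 and Lrrtm3 in 3. After TMM rescaling C2cd4a (adjusted p 0.0539), B3gat1 (0.0681), Slc15a2 (0.0542), Fxyd2 (0.0508) and Colec10 (0.0622) no longer passed.

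**Figure D2:**
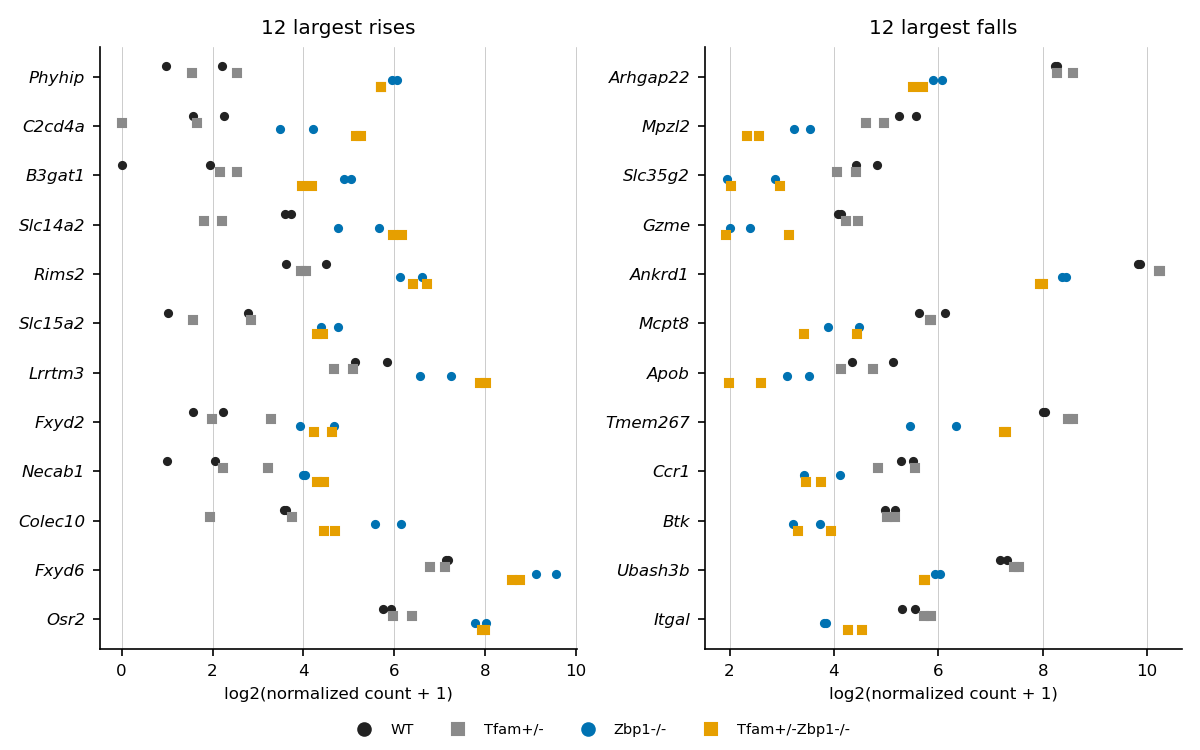
Points are log2(normalized count + 1) in each of the 8 libraries for the 12 largest rises (left) and the 12 largest falls (right), with black circles for WT, grey squares for Tfam+/-, blue circles for Zbp1-/- and orange squares for Tfam+/-Zbp1-/-. In each gene the blue and orange points lie to 1 side of the black and grey points, which the choice of these genes required.

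The largest fall was in Arhgap22 (chromosome 14, 33213994 to 33369936), which encodes a protein that switches off the small GTPase Rac. It had 310 and 299 normalized counts (WT), 382 and 306 (Tfam+/-), 58.6 and 66.1 (Zbp1-/-) and 44.9 and 51.2 (Tfam+/-Zbp1-/-). Every library with the Zbp1-/- genotype was below 70 and every other one above 290, a log2 difference of -2.54 ± 0.15 (adjusted p 0.0025). Mpzl2, an adhesion protein of the immunoglobulin family, fell by 2.18 ± 0.21 (adjusted p 0.00384), from between 23.4 and 46.8 to between 4.05 and 10.6. Ubash3b, a phosphatase that dampens tyrosine kinase signalling in blood cells, fell by 1.51 ± 0.14 (adjusted p 0.00342).

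Ankrd1, a nuclear protein of muscle and stretched fibroblasts, was at 903 and 928 (WT) and 1198 and 1218 (Tfam+/-), against 331 and 346 (Zbp1-/-) and 256 and 245 (Tfam+/-Zbp1-/-). The replicates of each genotype nearly coincided, and the difference was -1.85 ± 0.17 (adjusted p 0.00342). The remaining genes among the 12 largest falls were Slc35g2 (-1.98), Gzme (-1.85), Mcpt8 (-1.80), Apob (-1.79), Tmem267 (-1.69), Ccr1 (-1.61), Btk (-1.54) and Itgal (-1.49). Gzme is a granzyme and Mcpt8 a basophil protease. Apob is the main protein of low-density lipoprotein, Ccr1 a leukocyte chemokine receptor, Btk a kinase of B and myeloid cells, and Itgal the alpha chain of a leukocyte integrin. Itgal was called in all 8 fits, Mcpt8 and Btk in 4, Gzme, Tmem267 and Ccr1 in 3, Slc35g2 in 2 and Apob in 1.

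Some genes sat at close to the same reduced level in both genotypes that lack Zbp1. These were chosen after their values were seen. Cbl, a ubiquitin ligase for receptor tyrosine kinases, was at 694 to 861 normalized counts without the Zbp1-/- genotype and 336 to 399 with it (-1.11 ± 0.11, adjusted p 0.00384). Tll1, a secreted protease that processes procollagen and BMP antagonists, was at 1765 to 2102 and 724 to 937 (-1.12 ± 0.10, adjusted p 0.00342). In both genes the groups did not overlap.

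The 24 gene lists were compared by how many of their tested members were called, against 2.69% of all genes called higher and 0.686% called lower. The list of WNT and BMP ligands, receptors and antagonists had the most, with 16 of 41 called higher and 0 lower, and 9 higher after rescaling. Its median difference was 0.49, or 0.37 after rescaling, beside 0.118 and 0.0027 for all genes. The list of limb and mesenchyme patterning factors had 7 of 39 called higher and 0 lower (median 0.45), and semaphorins, ephrins, netrins and slits 8 of 47 higher and 1 lower (median 0.28). Collagens had 7 of 22 higher (median 0.37), matrix glycoproteins and proteoglycans 6 of 31 (median 0.31), and matrix proteases and inhibitors 4 of 25 higher and 1 lower (median 0.27). Macrophage and leukocyte markers had 0 of 15 higher and 5 lower (median -0.90).

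**Figure D3:**
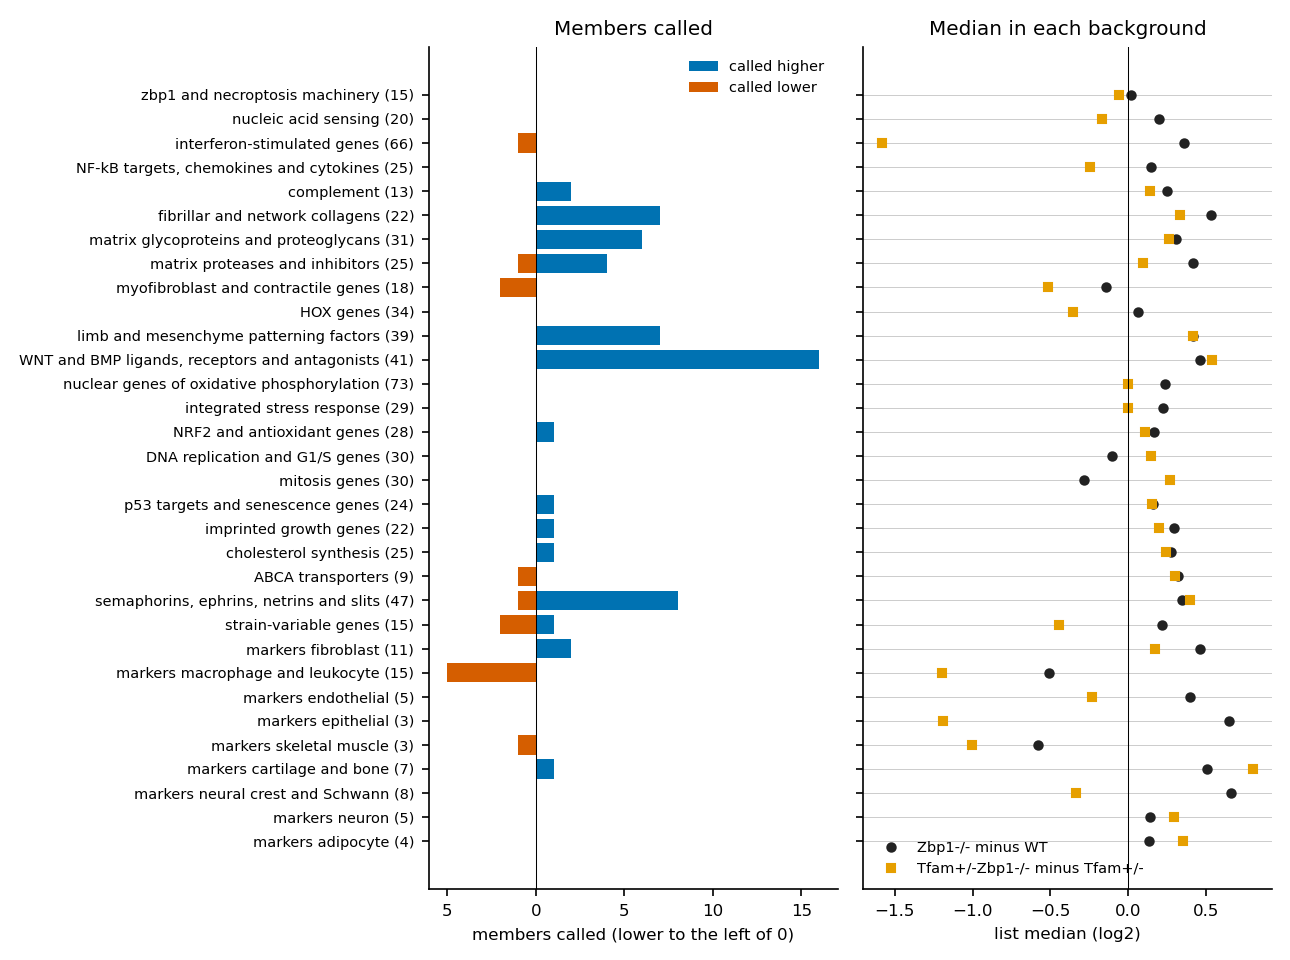
Left, bars count the members of each list called higher (blue) and lower (orange, drawn to the left of 0), with the number tested in parentheses. Right, points are the list's median log2 difference in the WT background (black circles) and the Tfam+/- background (orange squares). The WNT and BMP list has 16 members called higher, the macrophage and leukocyte markers have 5 called lower, and the interferon-stimulated list has medians of 0.35 and -1.58.

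WNT and BMP proteins are secreted signals that pattern the embryo, and the list holds ligands, receptors and the secreted proteins that block them. Among ligands, Bmp4 was at 579 and 556 normalized counts (WT), 377 and 358 (Tfam+/-), 1104 and 1106 (Zbp1-/-) and 1081 and 1192 (Tfam+/-Zbp1-/-). The 2 genotypes that lack Zbp1 stood at one level, above both others, and the difference was 1.29 ± 0.14 (adjusted p 0.00606). Bmp3 rose by 1.60 ± 0.20 (adjusted p 0.00962, 5 of 8 fits) and Bmp2 by 1.22 ± 0.21 (adjusted p 0.0278, 3 of 8). Gdf5, a joint-forming ligand of the BMP family, rose by 1.15 (2 of 8), Wnt16 by 0.82 and Wnt5b by 0.71 (1 of 8 each).

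Several secreted modulators rose with the ligands. Sfrp2, which binds WNT proteins outside the cell, was at 194 and 205 (WT), 169 and 170 (Tfam+/-), 550 and 539 (Zbp1-/-) and 700 and 705 (Tfam+/-Zbp1-/-). Replicates differed by little, and the difference was 1.74 ± 0.13 (adjusted p 0.0025). Sfrp1, of the same family, rose by 0.89 ± 0.10 (adjusted p 0.00606), although the groups overlapped. Its libraries had 1159 and 1181 normalized counts (WT), 640 and 760 (Tfam+/-), 2492 and 2307 (Zbp1-/-) and 1181 and 1164 (Tfam+/-Zbp1-/-), so that each Zbp1-/- genotype lay above its own background. Rspo2, which strengthens WNT signalling, rose by 1.63 ± 0.23 (adjusted p 0.0173, 3 of 8 fits), from between 129 and 245 to between 450 and 696. Lgr5, a receptor for the R-spondins that is not on the list and was chosen after its values were seen, rose by 1.67 ± 0.17 (adjusted p 0.00463). Sostdc1, an antagonist of both pathways, rose by 1.72 ± 0.35 (adjusted p 0.0459, 1 of 8), Chrd, a BMP antagonist, by 0.99 (1 of 8), and Dkk3 by 0.53 (3 of 8).

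Some feedback targets and receptors were also among the 16. Id1, Id2, Id3, Smad7 and Lef1, which are on the WNT and BMP list too, were not among them. Of the 41 members tested, 31 were above 0 and 10 below, and with the shared term 23 were called higher and 2 lower. Axin2, a standard transcriptional target of WNT signalling, was at 52.3 to 77.5 without the Zbp1-/- genotype and 124 to 191 with it (1.36 ± 0.18, adjusted p 0.0127, 5 of 8 fits). Smad6, a target and inhibitor of BMP signalling, rose by 0.80, and the WNT receptors Fzd1 and Fzd2 by 0.73 and 0.47 (2 of 8 fits for each of these 3). After TMM rescaling Sostdc1, Wnt16, Wnt5b, Chrd, Smad6, Fzd1 and Fzd2 no longer passed.

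**Figure D4:**
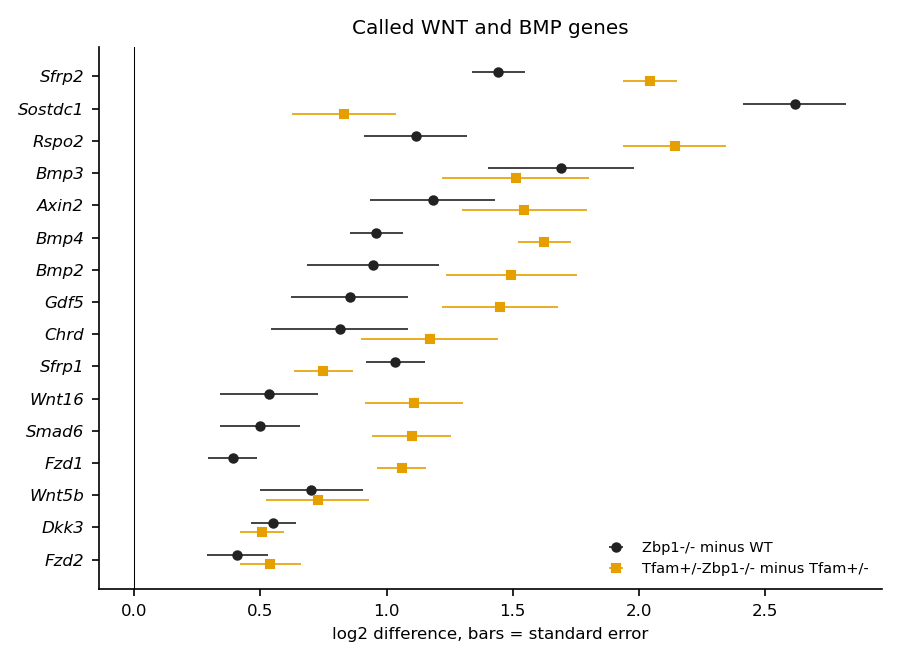
Points are log2 differences of the 16 called WNT and BMP genes in the WT background (black circles) and the Tfam+/- background (orange squares), and bars are standard errors from limma, with 2 libraries per genotype. All values lie above 0, from 0.39 for Fzd1 to 2.62 for Sostdc1 in the WT background, as the call in the main effect favours.

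Among factors that mark position in limb and mesenchyme, 7 of 39 were called higher, Osr2 among them. Msx1, a homeobox factor downstream of BMP signals, was at 154 to 236 normalized counts without the Zbp1-/- genotype and 454 to 757 with it (1.58 ± 0.20, adjusted p 0.0108, 6 of 8 fits). Tbx4, a factor of the hindlimb and lung, was at 95.4 to 129 and 209 to 423 (1.49 ± 0.22, adjusted p 0.0191, 3 of 8). Pitx1, which acts with Tbx4 in the hindlimb, rose by 0.95 (1 of 8), Prrx2 by 0.97 (6 of 8), and Osr1 and Irx3 by 0.73 and 0.72 (2 of 8 each). Pitx1, Osr1 and Irx3 did not pass after rescaling. Of the HOX genes, which encode position along the body axis, limma called 0 of 34, with 8 at an unadjusted p under 0.05. The largest of these differences was 1.13 ± 0.35 for Hoxa13 (adjusted p 0.141).

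Matrix genes were higher in part. Eln, which encodes elastin, was at 1623 and 1619 normalized counts (WT), 1158 and 865 (Tfam+/-), 2982 and 4382 (Zbp1-/-) and 3764 and 3846 (Tfam+/-Zbp1-/-). All Zbp1-/- libraries were above the others, at 1.54 ± 0.20 (adjusted p 0.0108, 6 of 8 fits). Fbn2, the fibrillin of embryonic microfibrils, rose by 1.17 ± 0.11 (adjusted p 0.00384), from between 7885 and 11358 to between 20593 and 22129. Of the small leucine-rich proteoglycans, which bind collagen fibrils, some rose: Prelp by 1.46 ± 0.16 (adjusted p 0.00606), Lum by 1.41 ± 0.25 (adjusted p 0.0308, 2 of 8) and Fmod by 0.89 ± 0.11 (adjusted p 0.00861, 6 of 8). Dcn, of the same family, was not called (0.59, adjusted p 0.0754). Matn4, a matrilin, rose by 1.77 (3 of 8).

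Among collagens, the transmembrane collagen Col23a1 had the largest rise, from between 14.8 and 27.5 normalized counts to between 51.5 and 102 (1.82 ± 0.20, adjusted p 0.00591). Col15a1, a basement membrane collagen, rose by 1.10 (2 of 8 fits), Col8a2 by 1.01 (4 of 8), and Col14a1, which sits on fibrils, by 0.66 (2 of 8). The fibrillar Col3a1 rose by 0.52 (3 of 8), from between 43766 and 61450 to between 69794 and 88481. Col12a1 rose by 0.48 (2 of 8) and Col6a3 by 0.43 (1 of 8), and neither passed after rescaling, nor did Col14a1. Col10a1, the collagen of hypertrophic cartilage, was called higher in the main effect (1.49 ± 0.25, adjusted p 0.0287, 2 of 8). It was higher by 0.81 in the WT and 2.16 in the Tfam+/- background, and this difference between backgrounds passed its own test (adjusted p 0.0204).

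Among 25 proteases and inhibitors, 4 were called higher and 1 lower. Adamtsl1 (0.62), Adamts1 (0.62), Serpine2 (0.47) and Timp2 (0.45) rose, in 3, 2, 2 and 2 of the 8 fits, and of these 4 Adamtsl1 passed after rescaling.

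Guidance molecules steer axons and migrating cells. Robo2, a receptor for Slit proteins, rose by 1.08 ± 0.13 (adjusted p 0.00889, 6 of 8 fits), and Sema3f, a secreted semaphorin, by 1.05 ± 0.14 (adjusted p 0.0127, 5 of 8). Epha5 rose by 1.07, Sema5a by 0.95, Sema3b by 0.92, the ligand Efna1 by 0.89, and the receptors Ephb3 and Ephb2 by 0.63 and 0.57, each in 1 to 3 of the 8 fits. Sema3e, a ligand of plexin D1, went the other way and fell by 1.06 ± 0.19 (adjusted p 0.0328, 3 of 8), from between 755 and 1110 to between 346 and 582. After rescaling, Robo2, Sema3f, Efna1 and Sema3e passed.

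Transcripts of leukocytes were lower in cultures without Zbp1. All 15 macrophage and leukocyte markers had a difference below 0 under both scalings, 5 were called lower, beside 0.686% of all genes, and in 11 the 4 Zbp1-/- libraries all lay below the other 4, beside 2.45%. The summed level of the 15 was 6160 to 8341 normalized counts without the Zbp1-/- genotype and 3176 to 4014 with it. Bulk RNA cannot tell fewer cells of a type from less RNA per cell. Lyz2, the lysozyme of macrophages and neutrophils, was at 2855 and 2844 (WT), 3445 and 3141 (Tfam+/-), 1625 and 1471 (Zbp1-/-) and 1393 and 1375 (Tfam+/-Zbp1-/-). It was lower in each library with the Zbp1-/- genotype than in any without it, by 1.06 ± 0.10 on the log2 scale (adjusted p 0.00354).

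Other defining markers were called lower too. Cx3cr1, the fractalkine receptor of monocytes and macrophages, fell by 0.97 ± 0.10 (adjusted p 0.00569), from between 206 and 284 normalized counts to between 106 and 131. Csf1r, the receptor that macrophages need for survival, fell by 0.96 ± 0.18 (adjusted p 0.0411, 2 of 8 fits), Itgam, an integrin chain of myeloid cells, by 1.10 ± 0.16 (adjusted p 0.0176, 4 of 8), and Fcer1g, an adaptor of Fc receptors, by 0.85 ± 0.16 (adjusted p 0.0367, 2 of 8). The complement genes C1qa, C1qb and C1qc of macrophages were at -1.18, -1.02 and -1.01 without passing the test. In a set of 20 genes of leukocyte signalling and adhesion, chosen after values were seen and sharing Itgam with the 15 markers, 12 were called lower and 0 higher, and 13 were called lower after rescaling. The set included Dock8 (-1.02, called in all 8 fits), Cybb (-1.05, 3 of 8), and, in 2 of 8 each, Lcp2 (-1.13), Itgb2 (-1.14) and Cd48 (-1.44).

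**Figure D5:**
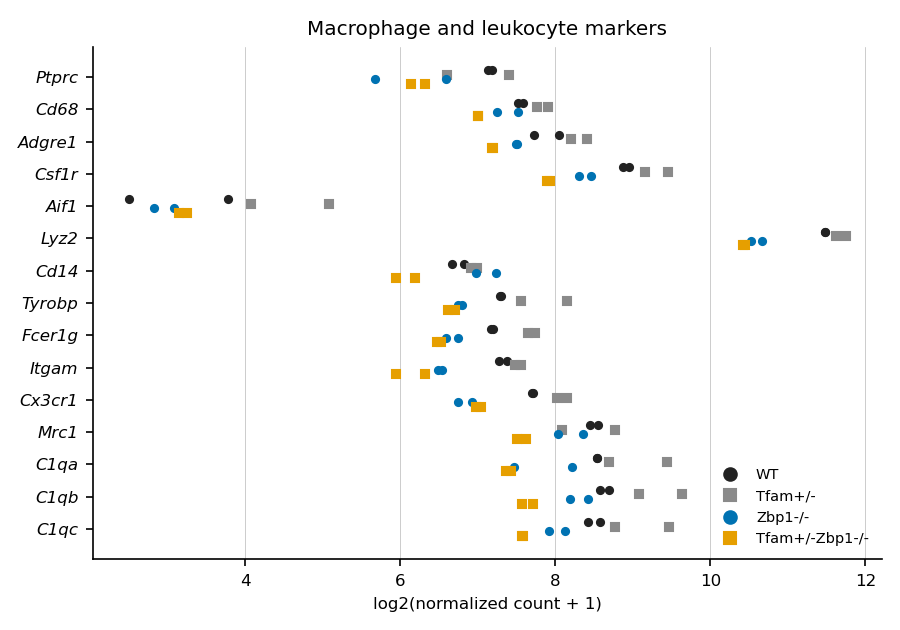
Points are log2(normalized count + 1) of the 15 macrophage and leukocyte markers in each library, with black circles for WT, grey squares for Tfam+/-, blue circles for Zbp1-/- and orange squares for Tfam+/-Zbp1-/-. For most genes the blue and orange points lie to the left, as for Lyz2 and Cx3cr1, while for Cd14, Aif1, Cd68 and Mrc1 the groups overlap.

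Some genes of mast cells and basophils were also lower. Of 10 such genes, gathered after values were seen, 3 had a mean of at least 10 and were tested, and all 3 were called lower, 2 of them after rescaling. Ms4a2, the beta chain of the IgE receptor, was at 49.4 to 91.3 normalized counts without the Zbp1-/- genotype and 20.8 to 45.5 with it (-1.38, 1 of 8 fits), and did not pass after rescaling (adjusted p 0.0501). The others were Mcpt8 and the adaptor Fcer1g, which is also among the 15 markers above. Falls in genes used by leukocytes, among them Btk, Itgal, Ccr1 and Ubash3b above, moved together with these markers, and the part of leukocyte content in them was not tested.

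The other marker lists had fewer calls. Of 5 endothelial markers tested limma called 0 (3 at an unadjusted p under 0.05), and of 3 epithelial, 8 neural crest and Schwann, 5 neuronal and 4 fat cell markers it also called 0 (1, 1, 3 and 0 at an unadjusted p under 0.05). Acta1, the skeletal muscle actin, fell by 1.24 ± 0.18 (adjusted p 0.0179, 2 of 8 fits), and the other 2 muscle markers tested were not called. The summed level of the 15 muscle markers was 1091 to 1807 normalized counts without the Zbp1-/- genotype and 627 to 965 with it. Most of each sum was Des and Acta1, while Myod1, Myog, Myf5 and Myf6 were at most 2.76 in any library. The part of muscle markers in the falls was not tested. Of the 6 erythroid markers none was tested, and their summed level was at most 4.92 normalized counts in any library. Markers of fibroblasts were called higher in 2 of 11 genes, Col3a1 and Lum, and those of cartilage and bone in 1 of 7, Col10a1. Cartilage and bone markers summed to 1882 to 2481 without the genotype and 3021 to 3310 with it. Much of that gap was Col10a1, at 284 to 480 without the genotype and 825 to 1341 with it. All 7 tested members were above 0, but Col2a1 (0.05) and Runx2 (0.03) hardly differed. The part of fibroblast or cartilage markers in the rises of matrix and signalling genes was not tested.

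Promoters of the genes that moved were examined for short motifs, in windows of 250 bases before to 50 after the start from RefSeq (GRCm38.p6). Windows were found for 313 of the 448 genes. The motif GAGGAAGT, bound by PU.1 (the myeloid factor Spi1), was present on either strand in 9.86% of 71 windows of genes called lower, 1.53% of 327 windows of genes called higher and 2.95% of windows of all genes tested. It was added to the search after the leukocyte genes had been seen. The 7 windows that hold it are those of Havcr2, Slamf9, Atp8b4, Fgd3, Lce1h, Ctss and Cyth4, in the last 2 of which no match lies before the start. Of the 5 with a match before the start, 3 are shown as examples, and capitals mark the motif:
Havcr2 (chr11:46454831-46454930, + strand): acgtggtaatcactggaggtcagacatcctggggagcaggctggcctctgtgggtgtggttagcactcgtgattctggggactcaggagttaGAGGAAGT
Slamf9 (chr1:172475260-172475359, + strand): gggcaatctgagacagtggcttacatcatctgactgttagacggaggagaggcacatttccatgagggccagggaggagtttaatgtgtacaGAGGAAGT
Atp8b4 (chr2:126491614-126491713, - strand): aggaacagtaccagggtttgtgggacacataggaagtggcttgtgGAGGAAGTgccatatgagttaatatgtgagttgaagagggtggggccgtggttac
In Havcr2 and Slamf9 the motif starts 8 bases before the RefSeq start of the window and in Atp8b4 115 bases before it. Havcr2, a receptor that restrains T and myeloid cells, fell by 1.14 (adjusted p 0.0492), Slamf9, a leukocyte surface protein, by 1.28 (adjusted p 0.0481), each in 1 of 8 fits, and Atp8b4, a lipid flippase, by 1.11 (adjusted p 0.0159, 3 of 8). All 3 were chosen after their values were seen. A match describes the letters and not binding.

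Windows of called genes also differed in CpG content from those of all genes tested. The median number of CpG per 300 bases was 7 for genes called lower, 15 for genes called higher and 20 for all genes tested. Other motifs searched were TTCNNNGAA (GAS, for STAT factors; 9.48% of windows of genes called higher, 4.23% lower, 6.74% tested), the TATA box TATAAA (8.26%, 9.86% and 7.25%) and the E-box CACGTG (7.03%, 4.23% and 9.77%). The TCF/LEF motif CTTTGAA of WNT targets, added after values were seen, was in 3.67%, 5.63% and 3.44%. The counts behind the lower windows are small, from 3 to 11 of 71 over the 7 motifs.

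Some contractile and mechanically regulated genes fell. Of 18 myofibroblast and contractile genes 2 were called lower and 0 higher, with a median of -0.33, and 4 were called lower after rescaling. Cnn1, a calponin of smooth muscle, was at 2305 to 2719 normalized counts without the Zbp1-/- genotype and 1436 to 1774 with it (-0.68 ± 0.10, adjusted p 0.0179, 2 of 8 fits). Actg2, the enteric smooth muscle actin, was at 2273 to 3017 and 1477 to 1780 (-0.68 ± 0.12, adjusted p 0.0301, 2 of 8). Of 10 genes known as targets of YAP and TEAD, gathered after values were seen, Ankrd1 and Ctgf were called lower and the other 8 were not called. Those 8 were split in direction. Axl, Crim1, Nuak2 and Cyr61 were below 0, and Ptpn14 (0.24), Ajuba (0.15), Amotl2 (0.10) and Lats2 (0.08) were above it. Ctgf, a matricellular growth factor, was at 9523 to 13200 and 6410 to 7041 (-0.75 ± 0.09, adjusted p 0.00759, 7 of 8 fits), whereas Cyr61 of the same family was at -0.21 (adjusted p 0.373). The TEAD motif GGAATG was in 15.5% of windows of genes called lower, 13.5% higher and 12.3% of all tested. The Ankrd1 window is shown in part, because this gene is the largest of these falls. It holds 2 matches before the start, and capitals mark the one that begins 123 bases before it:
Ankrd1 (chr19:36119913-36120012, - strand): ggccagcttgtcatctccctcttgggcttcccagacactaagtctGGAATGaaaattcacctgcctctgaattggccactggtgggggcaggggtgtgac

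Interferon-stimulated genes mostly had opposite signs in the 2 backgrounds. Of 66 tested, 1 was called (Cxcl10, lower) and 11 were at an unadjusted p under 0.05. In the WT background 54 of 66 were above 0 with a median of 0.35, and in the Tfam+/- background 1 of 66 with a median of -1.58. With the shared term the medians were 0.34 and -1.74. Only 11 of 66 had the same sign in both, beside 47.4% of all genes, and 27 were called for the difference between backgrounds, beside 0.663%. Zbp1 is itself a member of this list.

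Usp18, which removes Isg15 from proteins, shows the pattern. It was at 26.4 and 21.3 normalized counts (WT), 761 and 625 (Tfam+/-), 35.3 and 44.9 (Zbp1-/-) and 59.5 and 71.6 (Tfam+/-Zbp1-/-). Tfam+/- stood alone, and the effects of the Zbp1-/- genotype were 0.73 and -3.38, a difference of -4.11 (adjusted p 0.0146). Oas1a, AW011738, Oasl2 and Isg15 had differences of -3.99, -3.57, -3.54 and -3.49 between the backgrounds. Cxcl10, a chemokine, was lower in both backgrounds (-0.69 and -2.06, main effect -1.37 ± 0.29, adjusted p 0.0492), was called in 1 of the 8 fits and did not pass after rescaling (adjusted p 0.052). It had 38.8 and 35 normalized counts (WT), 193 and 237 (Tfam+/-), 21 and 24 (Zbp1-/-) and 58.6 and 43.7 (Tfam+/-Zbp1-/-), so that the groups overlapped.

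Ifi211, an interferon-inducible gene of the Ifi200 family that is not on the list and was chosen after its values were seen, fell by 1.35 ± 0.21 (adjusted p 0.022, 4 of 8 fits). It was at 327 and 366 normalized counts (WT), 603 and 1011 (Tfam+/-), 195 and 139 (Zbp1-/-) and 238 and 260 (Tfam+/-Zbp1-/-). Its reads may be shared with near-identical genes of its cluster. The interferon response element ISRE, searched as GAAA, any 2 bases and GAAA, was in 8.45% of windows of genes called lower, 1.53% higher and 3.03% of all tested. The windows of both falling genes hold it, in capitals:
Cxcl10 (chr5:92349040-92349139, - strand): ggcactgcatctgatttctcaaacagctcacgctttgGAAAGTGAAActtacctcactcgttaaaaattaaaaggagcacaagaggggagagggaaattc
Ifi211 (chr1:173913047-173913146, - strand): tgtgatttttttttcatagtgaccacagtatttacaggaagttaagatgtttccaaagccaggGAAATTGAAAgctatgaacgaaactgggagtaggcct

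Lists on sensing and death had no called member in the main effect. Of 15 genes of Zbp1 and the necroptosis machinery limma called 0 (1 at an unadjusted p under 0.05, Zbp1 itself), and of 20 genes of nucleic acid sensing 0 (2). Tlr7, an endosomal RNA receptor, had the largest difference of the latter, with 82.4 to 163 normalized counts without the Zbp1-/- genotype and 34.5 to 83.4 with it (adjusted p 0.158). Among 25 NF-kB targets, chemokines and cytokines it called 0 (7), with Cxcl15 at 2.07 ± 0.73 (adjusted p 0.179).

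Lists of metabolism and growth had few calls or none. Of 73 nuclear genes of oxidative phosphorylation limma called 0, with 0 at an unadjusted p under 0.05, and their median was 0.107 beside 0.118 for all genes. It called 0 of 29 genes of the integrated stress response (2 at an unadjusted p under 0.05), 0 of 30 genes of DNA replication (0) and 0 of 30 mitosis genes (0). Mitosis genes had medians of -0.29 in the WT background and 0.27 in the Tfam+/- background, and -0.21 and 0.21 with the shared term, and 4 of 30 had the same sign in both. Single calls were Sqle, an enzyme of cholesterol synthesis (0.35, 2 of 8 fits), Dlk1, an imprinted inhibitor of fat cell formation (1.09, 2 of 8), Tnfrsf10b, a death receptor (0.35, 1 of 8), and Abca6, a lipid transporter (-1.25, 3 of 8). The complement proteases C1s1 (0.69, 3 of 8) and C1ra (0.66, 1 of 8) rose. Sqle, Tnfrsf10b and C1ra did not pass after rescaling.

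Genes whose level is known to vary between mouse strains were kept as a list, because the strain is not given. Of 15 tested 3 were called. Nnt, the mitochondrial transhydrogenase, was at 947 and 928 normalized counts (WT), 808 and 971 (Tfam+/-), 2070 and 1961 (Zbp1-/-) and 1396 and 1472 (Tfam+/-Zbp1-/-). It rose by 0.90 ± 0.11 (adjusted p 0.00947, 5 of 8 fits), while Tmem267, near it on chromosome 13 (119488086 to 119610459, beside 119335527 to 119409257), fell by 1.69 ± 0.24 (adjusted p 0.0173, 3 of 8). Ide, the insulin-degrading enzyme, fell by 0.80 ± 0.15 (adjusted p 0.0412, 2 of 8). The only tested gene of the Xlr family, Xlr3b, was at 8.14 to 54.6 without the Zbp1-/- genotype and 72.5 to 113 with it, and did not pass (1.99 ± 0.46, adjusted p 0.0619). The part of strain in the results above was not tested, and strain and Zbp1 genotype cannot be told apart here.

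At the edge of the call, Ctnna2 was the last gene called (0.93, adjusted p 0.0495, 1 of 8 fits) and Usp11 the first not called (0.46, adjusted p 0.0505).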

How the data were processed

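RNA was sequenced in 8 libraries of 4 genotypes. The authors aligned reads to mm10 with STAR through BaseSpace software, per the series' design text, and Salmon and STAR 2.6.1a are named in the submitters' processing notes. The deposited signal is the authors' normalized count per gene. The sources used here do not give how reads were counted, whether by strand, or how values were scaled, so overlapping and near-identical genes are uncertain. Low values lay within 0.01 of whole reads in 22.1% to 34.8% of cases, so whole reads could not be rebuilt and no count model was used.

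Values were log2(normalized count + 1), a scale that understates changes of low genes. Zbp1 and Tfam genotype were fitted as additive terms by limma 3.58.1 under R 4.3.3, with eBayes and a trend in the variance, with 5 residual and 2.716 prior degrees of freedom. Effects within each background and their difference came from a fit of the 4 genotypes. Tests were two-sided, adjusted by Benjamini-Hochberg over 13267 genes. The fit was tested on simulated data. Names matched RefSeq for 99.5% of genes, which gave coordinates, 1-based. Another 26 names had become dates (19 tested) and are not named.

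Named genes were Zbp1 and Tfam, the 12 largest rises and 12 largest falls with groups that did not overlap, up to 4 called members of each list in each direction (or its largest difference where none was called), the 5 largest differences of opposite direction, and any called gene within 5 Mb of Zbp1. Genes outside this rule were picked with values in view, as were the further called list members and the 58 genes called in all 8 fits. Results for some genes are not reported here. The members and lists were chosen with earlier results of these data known. Alternatives were other pseudocounts (0.1 and 5), filters, TMM rescaling (trimming 30% of ratios and 5% of means), no trend, a replicate block, a shared term for the 2 shifted libraries, the 6 other libraries, and leaving out each library.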

Additional observations from a re-analysis of the deposited data

Results flagged for a closer look

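For 9 genes named in the text, of 88 genes in all, the effect of the Zbp1-/- genotype differed between the Tfam backgrounds by the test of that difference (limma, adjusted p under 0.05 over all genes), which is why they are listed. In 5 of them the effects had opposite signs, and the difference (Tfam+/- background minus WT background, log2) was -4.11 for Usp18, -3.99 for Oas1a, -3.57 for AW011738, -3.54 for Oasl2 and -3.49 for Isg15. In the other 4 both effects were above 0 and the larger was in the Tfam+/- background. The difference was 3.89 for Cxcl15, 1.35 for Col10a1, 1.68 for Penk, an opioid peptide precursor, and 1.07 for Fat4, a giant cadherin. The main effect of Penk was called in 3 and that of Fat4 in 2 of the 8 fits that left out a library.

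AW011738 and Isg15 lie close together on chromosome 4 (156203284 to 156206028 and 156199424 to 156200818). Penk was at 1199 and 1153 normalized counts (WT), 832 and 720 (Tfam+/-), 2067 and 2461 (Zbp1-/-) and 4820 and 4730 (Tfam+/-Zbp1-/-). Cxcl15 was at 33.7 and 32.2, 3.87 and 7.25, 35.6 and 36.7, and 106 and 97.6 in the same order. Within a background the 2 shifted libraries do not cancel. Limma called the difference in 0 genes in 5 of the 8 fits that left out a library. These lacked WT replicate 1 (1052 genes at an unadjusted p under 0.05), WT replicate 2 (1034), Tfam+/-Zbp1-/- replicate 1 (1005), its replicate 2 (1030) and Zbp1-/- replicate 2 (1210).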

How the results depend on the processing

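Pseudocounts of 5 and 0.1, a minimum mean of 50, no filter and no trend left the main count within 1.5 times of 448 (307 to 484). A single spread from the 4 genotypes gave 923 calls, 859 of them with the same direction in both backgrounds. With the replicate number as a block there were 101 calls, 101 in the same direction, all within the 448. The numbers do not pair the libraries, since deviations of equal-numbered libraries correlated at -0.698 to 0.059 over the 6 pairs of genotypes. The shared term gave 5665 calls (5612 in the same direction), the 6 libraries 3436 (3436), TMM rescaling 240 (240), and both together 3728 (3698), a combination chosen after seeing the data. Leaving out a library gave 65 to 745 for both counts. Genes with groups entirely apart numbered 5767 in the 6 libraries and 2141 to 4270 without 1 library.

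The WT background count of 141 became 1 with the replicate block, 4717 with the shared term, 4548 in 6 libraries, 87 with no filter, 86 after TMM rescaling, 3751 with both, 1 from the 4 libraries alone (0% of that 1 gene with the same sign), and 0 to 223 without 1 library. Without WT replicate 1 or 2, where limma called 0, 1103 and 1051 genes were at an unadjusted p under 0.05. The Tfam+/- background count of 748 became 351, 6049, 5779 and 4445 (block, term, 6 libraries, term with rescaling), 359 from the 4 libraries alone and 12 to 874 without 1 library. The difference between backgrounds went from 88 to 0 (1381 at an unadjusted p under 0.05), 2240, 2534 and 2209, 47 with no filter, and 0 to 126 without 1 library. Where 1 library remained in a genotype it was assumed to vary like the others.

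List medians were set against the median of all genes, a choice made after the raw medians were seen to move with rescaling. So measured, the 24 lists moved by less than the spread between replicates under each setting but 2, apart from fits without 1 library. In the 6 libraries 5 moved, to 0.15 for matrix glycoproteins, -0.15 for HOX genes, 0.0562 for p53 targets, 0.17 for ABCA transporters and 0.20 for semaphorins. With a minimum mean of 50, 2 moved, to -0.66 for interferon-stimulated and -0.40 for HOX genes. Without 1 library the ranges were 0.30 to 0.41 for WNT and BMP genes, 0.29 to 0.33 for limb factors, 0.13 to 0.24 for matrix glycoproteins, 0.0719 to 0.23 for proteases, 0.16 to 0.22 for semaphorins, -0.99 to -0.49 for interferon-stimulated genes, -0.33 to -0.13 for HOX genes, -0.0298 to 0.31 for complement, -0.17 to -0.0472 for necroptosis, -0.18 to -0.10 for sensing and -0.19 to -0.0499 for NF-kB targets. They were -0.11 to 0.0719 for the integrated stress response, -0.0488 to 0.0016 for NRF2 genes, -0.17 to -0.0794 for DNA replication, -0.21 to -0.0436 for mitosis, -0.0288 to 0.0532 for p53 targets, 0.0739 to 0.12 for cholesterol synthesis, 0.16 to 0.26 for ABCA transporters and 1.53 to 2.16 for Xlr3b. Of 67 named called genes 51 passed after TMM rescaling and 16 to 66 without 1 library, with 0 changes of sign. The Zbp1 main effect on Tfam, 0.09 and not called, reversed to -0.022 with TMM rescaling, with or without the shared term, and to -0.0301 without Tfam+/- replicate 1. A count test planned for whole reads was not run. The cause of these changes was not tested.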

Other observations

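Other groups of related genes stood out only after the values had been seen and are given as counts over whole families, beside 2.69% of all genes called higher. Hedgehog proteins are secreted signals of limb and skeletal patterning. Of 6 tested genes of their reception and its control, the 3 co-receptors Cdon, Boc and Gas1 were called higher. Gas1 was at 2113 and 2200 normalized counts (WT), 1507 and 1605 (Tfam+/-), 3934 and 3175 (Zbp1-/-) and 5015 and 4815 (Tfam+/-Zbp1-/-) (1.19 ± 0.19, adjusted p 0.0251, called in 2 of the 8 fits that left out a library). Boc rose by 0.79 ± 0.10 (3 of 8) and Cdon by 0.80 ± 0.14 (2 of 8), while Ptch1, Hhip and Smo were not called. After TMM rescaling 2 of the 6 passed.

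IGF-binding proteins control access of insulin-like growth factors to their receptor, and 3 of 6 tested were called higher. Igfbp3 was at 4493 and 4602 (WT), 2384 and 2358 (Tfam+/-), 8576 and 8252 (Zbp1-/-) and 4657 and 4674 (Tfam+/-Zbp1-/-). Its level in Tfam+/-Zbp1-/- was close to that in WT, and the Zbp1 main effect was 0.93 ± 0.07 (adjusted p 0.0025, called in all 8 fits). Igfbp4 rose by 0.95 ± 0.09 (all 8) and Igfbp2 by 1.74 ± 0.31 (2 of 8), which did not pass after rescaling (adjusted p 0.0514). Fgfr2 and Fgfr3 were called higher, by 0.78 and 1.38 (2 of 8 each), of 4 FGF receptor genes tested, and 0 of the 4 passed after rescaling.

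Among the 58 genes called in all 8 such fits were basement membrane and matrix genes, chosen after their values were seen: Lama4 (0.63), Nid2 (0.88), Hmcn1 (1.20), Frem1 (1.32) and Egfl6 (1.88). Gpc3, a cell-surface proteoglycan that binds growth factors, rose by 0.89 ± 0.07. Tfap2b, a factor of the neural crest, was at 165 to 217 without the Zbp1-/- genotype and 324 to 701 with it (1.40 ± 0.16). Nes, an intermediate filament of progenitor cells, fell by 0.78 ± 0.08, and Pkp2, a desmosomal plakophilin, by 0.84 ± 0.09.

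Called genes lay close together in places. In windows of 5 Mb the most were 7 of 85 tested on chromosome 18 (35 to 40 Mb), where Pcdhga2 (6 of 8 fits), Pcdhga3 (2), Pcdhga4 (1), Pcdhga5 (2), Pcdhga7 (1) and Pcdhb22 (2) were called higher. Of these 6, Pcdhga2 passed after TMM rescaling. The gamma protocadherins share their last exons, so their levels are not independent and 5 of 12 members called, and 1 of 12 after rescaling, are uncertain as counts. On chromosome 9, 4 of 41 tested genes from 40 to 45 Mb and 4 of 27 from 45 to 50 Mb were called, among them Cbl and Mpzl2 (lower) and Fxyd6 and Fxyd2 (higher). By chromosome, calls made up 1.9% (chromosome 12) to 5.93% (chromosome 14) of genes tested. No test of these positions was made.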
